A study of Homo sapiens with 38 samples.

Results

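TBX21, EOMES, RORA, FOXP3, BCL6, PRDM1, IRF4 and MAF encode transcription factors that set or steer the fate of helper T cells. The regions described here are all the GATA3, BHLHE40 and H3K27ac regions that overlapped the RefSeq record of one of these 8 genes or the 50 kb on either side of it. They came to 34 of 29009 GATA3 regions, 43 of 26205 BHLHE40 regions and 106 of 113570 H3K27ac regions. All 8 symbols were found in the RefSeq gene table and in its promoter table, the latter with 10 promoter entries because BCL6 and PRDM1 have 2 each. Regions were taken by gene position, whatever their signal.

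The study mapped protein binding and histone marks by chromatin immunoprecipitation and sequencing in Jurkat, an established human T-cell acute lymphoblastic leukaemia line, in 38 samples of 19 groups with 2 samples each. The 3 groups used here carried a control lentivirus (Ctrl_LV) and were stimulated with PMA and ionomycin, which together mimic signalling through the T-cell receptor. The doses were 50 ng/ml for PMA and 500 ng/ml for ionomycin. Sample labels give 5 h of stimulation where the treatment protocol gives 2 h. The groups differed only in the antibody, raised against GATA3, BHLHE40 or the acetylated histone mark H3K27ac, and all 3 groups share the vector and the stimulation, so no untransduced or resting cells enter the values below. All cells were of a single leukaemia line, a limit on how far they stand for any helper T-cell subset. The other 16 groups were not analysed here. Each group is represented by a single peak list made from its 2 samples, so no spread between samples can be given and no difference was tested across samples. How deeply the samples were sequenced is unknown.

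In CD4 T cells, T-bet (TBX21) drives the Th1 programme, FOXP3 the regulatory programme and BCL6 the follicular helper programme, RORA contributes to the Th17 programme, and GATA3 drives Th2 differentiation and holds back Th1 genes. PRDM1 encodes BLIMP-1, a repressor that opposes BCL6; EOMES is the T-box relative of T-bet; IRF4 is induced by antigen receptor signalling, and MAF promotes IL4, IL10 and IL21. BHLHE40 is a basic helix-loop-helix factor, induced on activation, that binds E-box sequences, and H3K27ac marks active promoters and enhancers.

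Promoters are shown for the 5 genes where a region lay on the promoter, or where a GATA or E-box match can be set against the regions nearby. Each sequence is a 300-base RefSeq window on GRCh38.p14, 250 bases before to 50 bases after the gene start, printed 5′ to 3′ on the gene's own strand. Capitals mark matches to CANNTG, the general E-box, or to the GATA core (AGATA or TGATA followed by an A or a G), each searched on both strands; the palindromic E-box CACGTG is a special case of CANNTG.
TBX21 promoter, chr17:47732986-47733285, plus strand: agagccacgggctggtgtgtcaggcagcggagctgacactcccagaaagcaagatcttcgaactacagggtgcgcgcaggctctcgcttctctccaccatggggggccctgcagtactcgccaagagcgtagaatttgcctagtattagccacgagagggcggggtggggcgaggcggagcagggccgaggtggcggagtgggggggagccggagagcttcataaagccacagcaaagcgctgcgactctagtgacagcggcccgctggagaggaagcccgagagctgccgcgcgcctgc
BCL6 promoter, chr3:187745419-187745718, minus strand: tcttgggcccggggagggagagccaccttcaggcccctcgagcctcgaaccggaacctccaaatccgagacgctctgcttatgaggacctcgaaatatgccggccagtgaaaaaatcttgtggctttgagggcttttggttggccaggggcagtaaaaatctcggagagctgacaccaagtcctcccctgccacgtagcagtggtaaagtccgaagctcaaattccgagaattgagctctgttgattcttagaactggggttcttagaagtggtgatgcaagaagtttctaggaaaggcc
EOMES promoter, chr3:27722274-27722573, minus strand: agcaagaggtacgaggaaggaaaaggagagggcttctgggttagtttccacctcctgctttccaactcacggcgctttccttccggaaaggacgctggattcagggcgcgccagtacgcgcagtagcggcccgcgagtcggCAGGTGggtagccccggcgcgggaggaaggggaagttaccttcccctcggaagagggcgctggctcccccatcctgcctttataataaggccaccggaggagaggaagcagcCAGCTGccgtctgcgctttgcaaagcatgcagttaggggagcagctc
PRDM1 promoter, chr6:106086086-106086385, plus strand: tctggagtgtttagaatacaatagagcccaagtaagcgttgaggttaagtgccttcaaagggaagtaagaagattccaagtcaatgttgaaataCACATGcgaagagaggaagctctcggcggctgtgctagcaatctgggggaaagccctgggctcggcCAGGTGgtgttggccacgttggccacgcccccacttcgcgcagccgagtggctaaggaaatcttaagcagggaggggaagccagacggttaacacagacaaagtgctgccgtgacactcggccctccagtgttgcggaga
FOXP3 promoter, chrX:49264661-49264960, minus strand: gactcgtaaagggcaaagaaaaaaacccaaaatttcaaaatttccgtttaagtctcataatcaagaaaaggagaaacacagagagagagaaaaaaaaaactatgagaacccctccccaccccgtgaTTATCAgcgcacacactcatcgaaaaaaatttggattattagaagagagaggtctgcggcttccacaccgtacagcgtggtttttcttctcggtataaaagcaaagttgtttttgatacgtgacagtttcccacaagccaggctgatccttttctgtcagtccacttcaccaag
Over all 35116 promoters in the table, 25.0% held a GATA match, 7.26% held CACGTG and 68.7% held CANNTG. Among the 10 promoters of the 8 genes, the GATA core appeared only in that of FOXP3, as TTATCA starting 124 bases before the start, and CACGTG in none. The TBX21 promoter and the BCL6 promoter shown are the 2 of the 10 that a BHLHE40 region overlapped, and neither held a CANNTG match. The EOMES promoter held 2 CANNTG matches and the PRDM1 promoter shown held 2, with no BHLHE40 region over either. Matches also lay in the other BCL6 promoter (4), the other PRDM1 promoter (3), and those of RORA (1) and MAF (4), again without BHLHE40. The IRF4 and FOXP3 promoters had neither a match nor a BHLHE40 region. Only the 300-base windows were searched. The BHLHE40 regions at TBX21 and BCL6 are 1386 and 761 bp wide, so E-boxes elsewhere in them were not looked for. The promoter sequences also differed in composition, from 41.3% G and C in FOXP3 to 65.0% in TBX21 and 74.0% in IRF4, against a median of 58.7% over all promoters.

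None of the 8 genes had a GATA3 region over a promoter, where 20.6% of protein-coding genes did. BHLHE40 regions lay over the promoters of 2 genes, TBX21 and BCL6, against 47.4% of protein-coding genes. H3K27ac regions lay over the promoters of 3 genes, EOMES, BCL6 and PRDM1, against 51.7%. No promoter of the 8 carried both factors (19.6%). With a −log10 q of at least 5, called strong H3K27ac from here on, 2 of them remained, EOMES and BCL6, against a background of 47.5%. Widened to 1 kb around the start, the counts were 1 gene for GATA3, PRDM1 (23.7%), 3 for BHLHE40 (49.6%) and 4 for H3K27ac (57.6%). At an irreproducible discovery rate of 0.01 the promoter counts were 0 for GATA3 (14.3%) and 2 for BHLHE40 (42.6%). The records themselves were overlapped by a GATA3 region in 3 genes (background 40.8%), by a BHLHE40 region in 5 (56.0%) and by an H3K27ac region in 6 (70.9%). No region of any list overlapped the FOXP3 record or the IRF4 record. The promoter entries of PRDM1 and RORA lie inside their records, so the promoter counts leave out the 5′ ends of both records. At PRDM1 a BHLHE40 region spanned that end.

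Taking the record with its 50 kb flanks, each of the 8 windows held at least 1 GATA3, 1 BHLHE40 and 1 H3K27ac region, where 76.1%, 80.0% and 92.6% of all 20033 protein-coding windows did. A GATA3 region that overlapped a BHLHE40 region, called shared from here on, was present in 7 windows, all but that of IRF4 (background 60.5%), and strong H3K27ac in 8 (79.5%). The windows differ in length, from 107 kb at EOMES to 841 kb at RORA with a protein-coding median of 124 kb, so counts were set per 100 kb. BHLHE40 density was highest at TBX21, with 5.32 regions per 100 kb, and at BCL6, with 4.84, against a protein-coding median of 1.62. GATA3 density was highest at EOMES, with 2.81 per 100 kb, followed by BCL6 with 2.42 and PRDM1 with 2.30, against a median of 0.992. H3K27ac density ranged from 1.61 per 100 kb at MAF to 12.4 at TBX21, against a median of 5.90. MAF was lowest of the 8 in all 3 lists, and IRF4 next lowest in both factor lists. The strongest GATA3 region of a window ordered the genes differently: its signal stood at the 98.4th percentile of all protein-coding windows, those without a region counted as 0, at FOXP3, the 97.0th at RORA, the 96.1st at EOMES, the 87.8th at PRDM1 and the 87.3rd at BCL6, and at the 27.8th at TBX21. Unlike the densities, these percentiles were not set per length. The RORA window held 16 GATA3 regions, against a protein-coding median of 2, so more regions could supply its maximum.

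**Figure D1:**
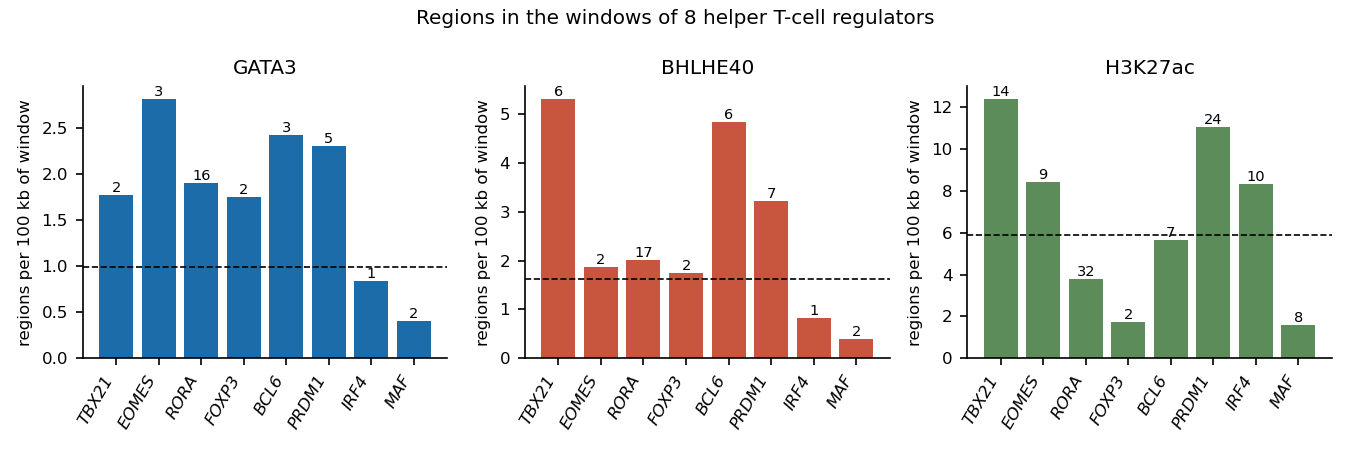
Regions per 100 kb of window (bars, vertical axis) for each of the 8 genes in the GATA3, BHLHE40 and H3K27ac lists, with the number of regions over each bar and a dashed line at the median of 20033 protein-coding windows. TBX21 stands highest for BHLHE40 at 5.32 and EOMES for GATA3 at 2.81, while MAF is lowest in all 3 lists.

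TBX21 (chromosome 17, 47733236 to 47746122, plus strand) had 2 GATA3, 6 BHLHE40 and 14 H3K27ac regions. The BHLHE40 region at 47732268 to 47733653 had its summit 1 bp from the gene start and a signal of 7.32. Signal values here and below are the authors' own enrichment measure for each region, and this signal ranked 18030 of 26205. It overlapped H3K27ac only weakly: the listed H3K27ac region nearest to the promoter window ended 14 bp from it, with a signal of 3.52 and a −log10 q of 4.21. A stronger BHLHE40 region lay 11859 bp upstream at 47720723 to 47721837, with a signal of 16.6, and overlapped neither GATA3 nor H3K27ac. The only shared region of the window lay beside it at 47719389 to 47719867, where GATA3 had a signal of 7.01 and BHLHE40 one of 11.5, with summits 25 bp apart over strong H3K27ac with a −log10 q of 5.69. The remaining GATA3 region, of signal 6.01, and 3 of the BHLHE40 regions had their summits inside the neighbouring gene TBKBP1. GATA3 signal at TBX21 was thus low in both regions, and neither lay on the gene.

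EOMES (chromosome 3, 27715953 to 27722713, minus strand) had 3 GATA3, 2 BHLHE40 and 9 H3K27ac regions. Its strongest GATA3 region, at 27770188 to 27770942, had a signal of 77.2 and ranked 549 of 29009. A BHLHE40 region of signal 17.3 at 27770322 to 27770873 had its summit 2 bp away. The place lay 48242 bp upstream of the start and overlapped H3K27ac of signal 3.39 and a −log10 q of 3.73, below the strong class. The other GATA3 regions had signals of 18.9, 27507 bp upstream, and 7.82, downstream of the gene. Strong H3K27ac of signal 5.15 lay over the promoter shown above, from 27722061 to 27722363, with no factor region on it. The other strong H3K27ac region of the window, 40799 bp downstream of the start, overlapped neither factor either. Both T-box genes had 1 shared place, upstream of the start in each. At TBX21 it lay 13641 bp away with a GATA3 signal of 7.01. At EOMES it was stronger, farther upstream and 47475 bp from the record, near the 50 kb limit of the window. The starts differed, with BHLHE40 but no GATA3 at that of TBX21 and neither factor at that of EOMES.

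RORA (chromosome 15, 60488284 to 61229302, minus strand) encodes a nuclear receptor and has the longest record of the 8. Its window held 16 GATA3, 17 BHLHE40 and 32 H3K27ac regions, and 10 of the GATA3 regions were shared. Per 100 kb the GATA3 count was 1.90, at the 68.1st percentile of protein-coding windows, so the count was less far above the median once set per length. The strongest GATA3 region, at 60844272 to 60845204, had a signal of 84.6 and ranked 423, and BHLHE40 at 60844411 to 60845131 had a signal of 18.2 with its summit 48 bp away. The next GATA3 region by signal, 32.8 at 60585709 to 60586533, overlapped a BHLHE40 region of only 4.47 and no H3K27ac. The third, 30.2 at 60649456 to 60650552, overlapped BHLHE40 of signal 16.6 with summits 15 bp apart, and was the only shared place inside the RORA record with strong H3K27ac, of signal 6.05. The strongest BHLHE40 region, 18.9 at 60906148 to 60906742, lay over a GATA3 region of 11.4 and no H3K27ac. Inside the record, the factor summit nearest to the 5′ end lay 323 kb from it. Outside the record a shared pair lay nearer, with summits 15155 bp (GATA3, signal 14.4) and 14901 bp (BHLHE40, signal 12.7) upstream of that end. This pair overlapped weak H3K27ac of signal 3.82. The RORA promoter in the table, at 60627481 to 60627780 inside the record, was overlapped by no region. The H3K27ac region of highest signal in the window, 10.5, lay 142 bp from the start of the neighbouring gene ICE2, where a shared pair of GATA3 signal 5.33 and BHLHE40 signal 12.2 also lay.

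FOXP3 (chromosome X, 49250438 to 49264710, minus strand) had 2 regions in each list. The GATA3 region at 49273160 to 49273971 was the strongest of the 34, with a signal of 106 and rank 202 of 29009, the only one in the top 1% of its list. BHLHE40 at 49273257 to 49273766 had a signal of 19.5 and rank 3426, with its summit 10 bp away. This place lay 8815 bp upstream of the FOXP3 start and 3732 bp inside PPP1R3F, the gene next to it, and no H3K27ac region overlapped it. Both H3K27ac regions of the window were strong and lay at starts of neighbouring genes, 292 bp from that of PPP1R3F with a signal of 18.5 (rank 220) and 48 bp from that of CCDC22 with a signal of 9.67. The second shared pair, of GATA3 signal 8.98 and BHLHE40 signal 12.5, lay near the start of SYP at the very edge of the window, with both summits just outside it. The FOXP3 promoter, the only one of the 10 with a GATA match, had its nearest GATA3 region 8200 bp away.

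BCL6 (chromosome 3, 187721377 to 187745468, minus strand) had 3 GATA3, 6 BHLHE40 and 7 H3K27ac regions, and all 3 GATA3 regions were shared. At the promoter shown above, the H3K27ac region at 187745303 to 187745988 had a signal of 23.2 and ranked 79 of 113570, the highest of the 106. A BHLHE40 region at 187745238 to 187745998, of signal 9.39, had its summit 121 bp from the start, and the nearest GATA3 region lay 24182 bp away. That GATA3 region, at 187769900 to 187770992, had a signal of 42.8 and ranked 1928. BHLHE40 there had a signal of 22.8 and ranked 2407, with summits 12 bp apart over strong H3K27ac regions of signal 4.09 and 4.06. A shared pair farther upstream, of GATA3 signal 6.65 and BHLHE40 signal 7.21, lay over stronger H3K27ac of signal 8.26. The third pair lay downstream at 187684872 to 187685330, with a GATA3 signal of 35.3 and a BHLHE40 signal of 7.98, had no H3K27ac, and was nearer to the start of SST than to that of BCL6.

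PRDM1 (chromosome 6, 105992690 to 106109938, plus strand), the gene of the repressor that opposes BCL6, had 5 GATA3, 7 BHLHE40 and 24 H3K27ac regions. Its strongest GATA3 region, 43.8 at 105989946 to 105990771, ranked 1848 and lay 2333 bp before the start of the record. A BHLHE40 region of signal 7.38 had its summit 1 bp from it, and no H3K27ac region overlapped the pair. The other 3 shared pairs had lower GATA3 signals, of 17.6, 9.01 and 5.51. The pair of GATA3 signal 5.51 and BHLHE40 signal 6.72 lay inside the gene, 980 and 1002 bp from the gene start at 106098941, over strong H3K27ac of signal 6.72. The strongest BHLHE40 region, 17.6 at 106117414 to 106118275, lay beyond the 3′ end with strong H3K27ac and no GATA3. The promoter shown above was overlapped only by weak H3K27ac, in regions of signal 2.64 and 2.61. The 5′ end of the record, which has no promoter entry, was spanned by a BHLHE40 region of signal 4.99 at 105992298 to 105992863. That region overlapped weak H3K27ac of signal 3.48 and no GATA3. Of the GATA3 regions in the top 10% of the list, BCL6 thus held 2, 1 of them over strong H3K27ac, and PRDM1 held 1, over none. Strong H3K27ac overlapped a promoter window of BCL6 and none of PRDM1. This contrast depends on the promoter limits: the PRDM1 region of signal 6.72 ended 431 bp from the promoter window of the start at 106098941. With their flanks, PRDM1 held 5 strong H3K27ac regions and BCL6 held 4. Strong H3K27ac overlapped 2 of the 5 GATA3 regions at PRDM1 and 2 of the 3 at BCL6.

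IRF4 (chromosome 6, 391752 to 411443, plus strand) had 1 GATA3, 1 BHLHE40 and 10 H3K27ac regions, and was the only gene of the 8 with no shared region. Its BHLHE40 region, at 446085 to 447348, had the highest BHLHE40 signal of the 43, 26.2 with rank 1810. It lay 35493 bp beyond the 3′ end of the record over 2 strong H3K27ac regions, of signal 6.52 and 4.31. The GATA3 region, 13.1 at 429459 to 429923, overlapped weak H3K27ac only. The IRF4 promoter was overlapped by no region, with the nearest H3K27ac region 1432 bp away.

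MAF (chromosome 16, 79202622 to 79600737, minus strand) had 2 GATA3, 2 BHLHE40 and 8 H3K27ac regions in a 498 kb window. The single shared place, at 79380757 to 79381596, had a GATA3 signal of 17.7 and a BHLHE40 signal of 4.79, with summits 29 bp apart, over the only strong H3K27ac region of the window, of signal 4.84. It lay 219601 bp downstream of the start, within the record. The remaining GATA3 region, of signal 21.1, and BHLHE40 region, of signal 8.37, also lay within the record, apart from each other and from H3K27ac. No factor region lay nearer to the MAF start than the shared place, and the nearest H3K27ac region was 47507 bp from the promoter.

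**Figure D2:**
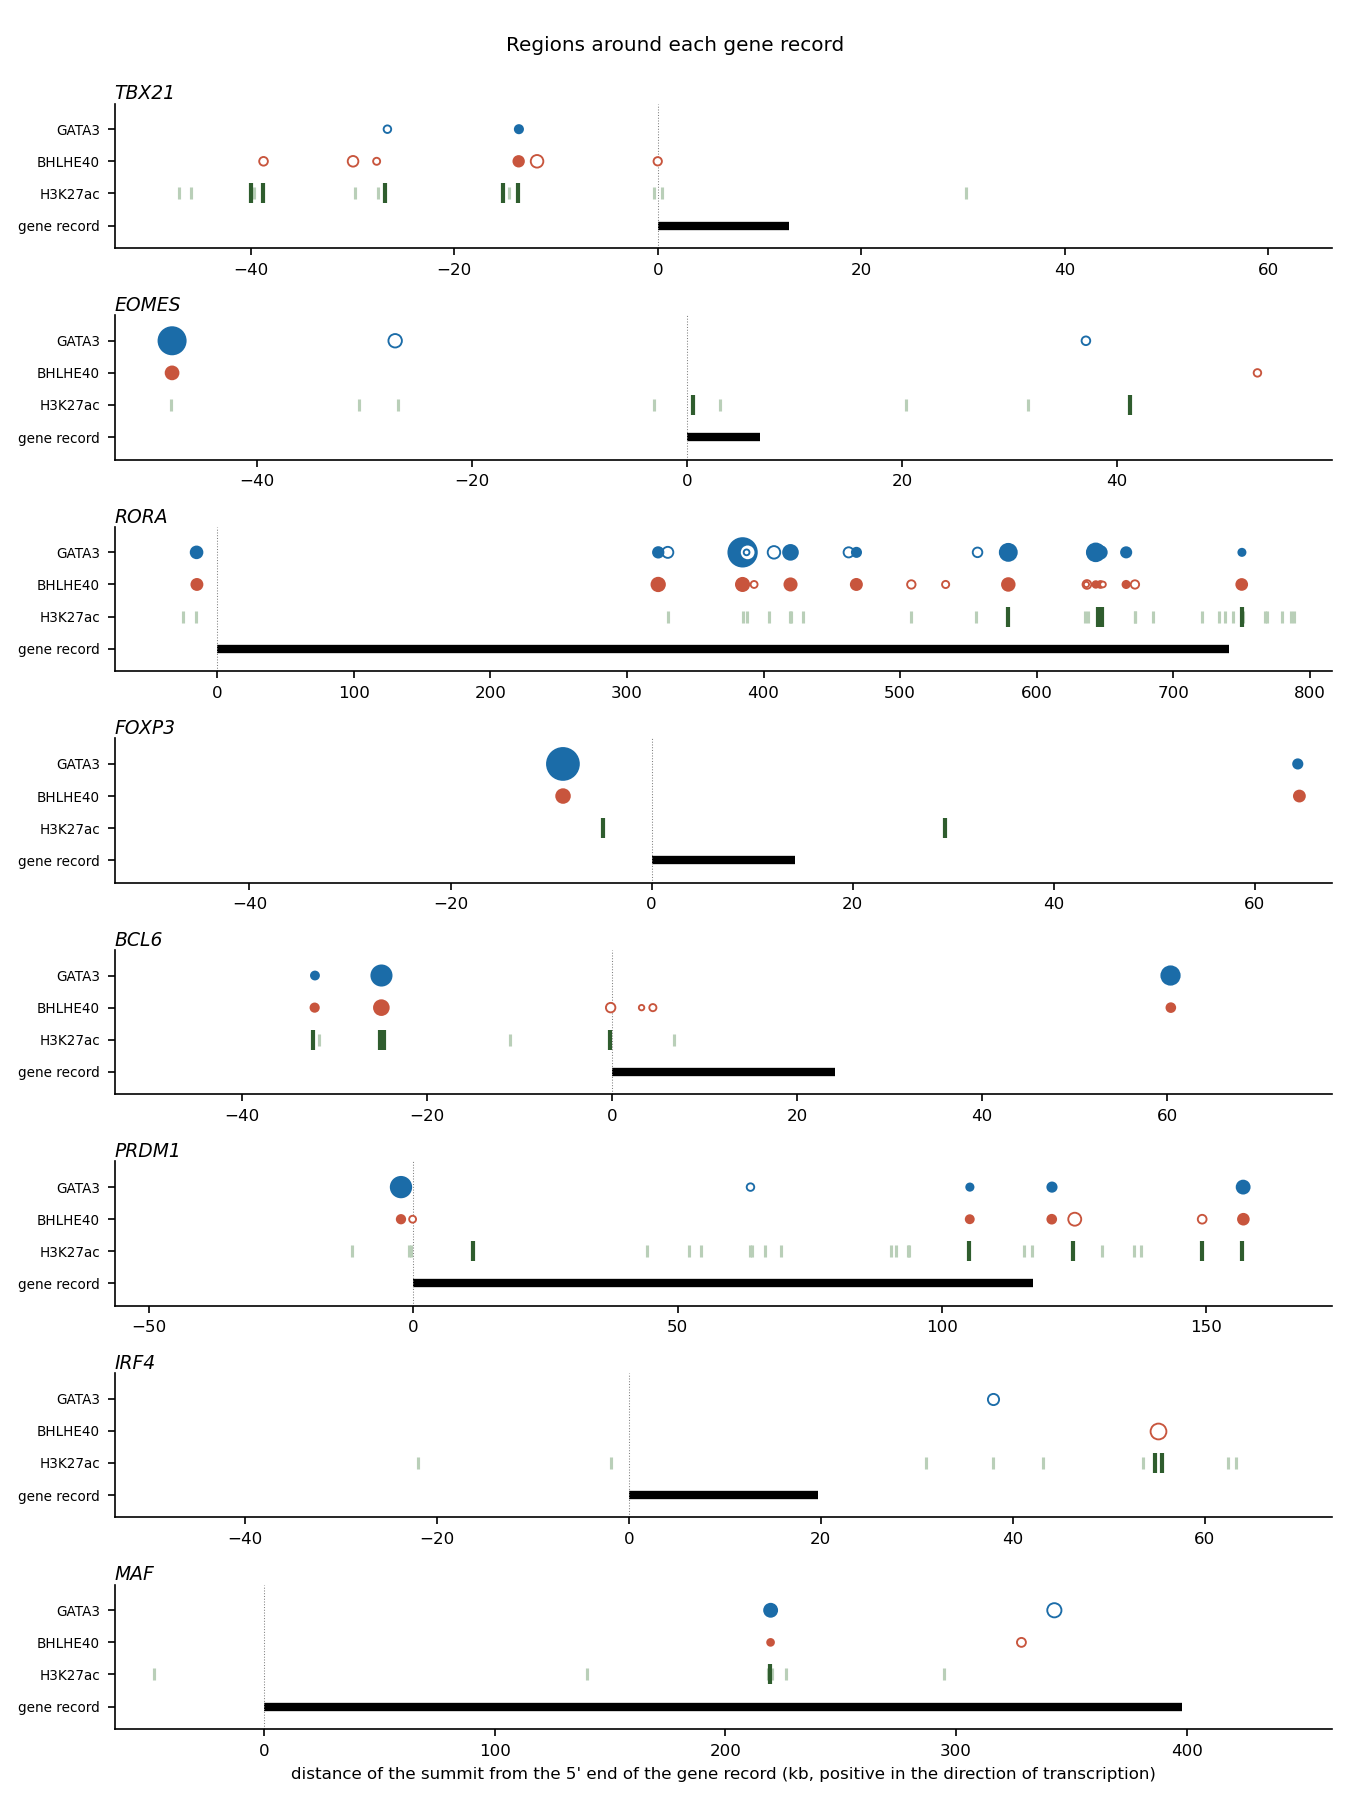
Positions of region summits in the window of each gene, in kb from the 5′ end of the record in the direction of transcription, with the record as a black bar. Circle area follows the signal, filled circles are regions shared by GATA3 and BHLHE40, and dark ticks are strong H3K27ac; the large filled circles near −9 kb at FOXP3, near −48 kb at EOMES and inside RORA are the GATA3 regions of signal 106, 77.2 and 84.6.

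Across the 8 genes, GATA3 summits lay inside the record for 18 of 34 regions, BHLHE40 summits for 21 of 43 and H3K27ac summits for 48 of 106. Summits within 1 kb of a start of the same gene numbered 1, 2 and 6, and the median distance to it was 51.1, 46.8 and 42.2 kb. This distance was not set per length, and the windows of RORA and MAF span 841 and 498 kb. Summits more than 1 kb from every start with a promoter entry were 31 of 34 for GATA3, against 25319 of 29009 in the whole list. For BHLHE40 they were 38 of 43, against 18183 of 26205. Shares inside a record or nearest to the same gene were not taken over the whole lists. The nearest protein-coding start belonged to the member gene for 29 GATA3, 36 BHLHE40 and 84 H3K27ac regions; the others lay nearest to a neighbour such as TBKBP1, ICE2, PPP1R3F, SYP or SST. Neighbouring protein-coding promoters in the same windows numbered 8. GATA3 overlapped 2 of them, those of ICE2 and SYP, against 20.6% of protein-coding genes. BHLHE40 overlapped the same 2 (47.4%), and strong H3K27ac 3, those of ICE2, CCDC22 and PPP1R3F (47.5%).

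GATA3 regions around the 8 genes had a median signal of 13.7, ranging from 3.51 to 106, against 11.2 over the whole list. The BHLHE40 median was 7.98, ranging from 2.92 to 26.2, against 9.35. Of the 34 GATA3 regions, 6 were in the top 10% of their list: those of signal 106 at FOXP3, 84.6 at RORA, 77.2 at EOMES, 43.8 at PRDM1, and 42.8 and 35.3 at BCL6. All 6 were shared with BHLHE40, as were 2617 of the 2900 regions in the top 10% of the whole list (90.2%). Of the 43 BHLHE40 regions, 2 were in the top 10%, at IRF4 and at the BCL6 upstream place. Shared GATA3 regions had a median signal of 17.0 and unshared ones 11.8, against 13.9 and 10.1 over the whole list. For BHLHE40 these medians were 12.2 and 7.32, against 11.4 and 7.96, so the order was the same in the whole lists. H3K27ac medians were 3.31 both around the 8 genes and over the whole list.

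**Figure D3:**
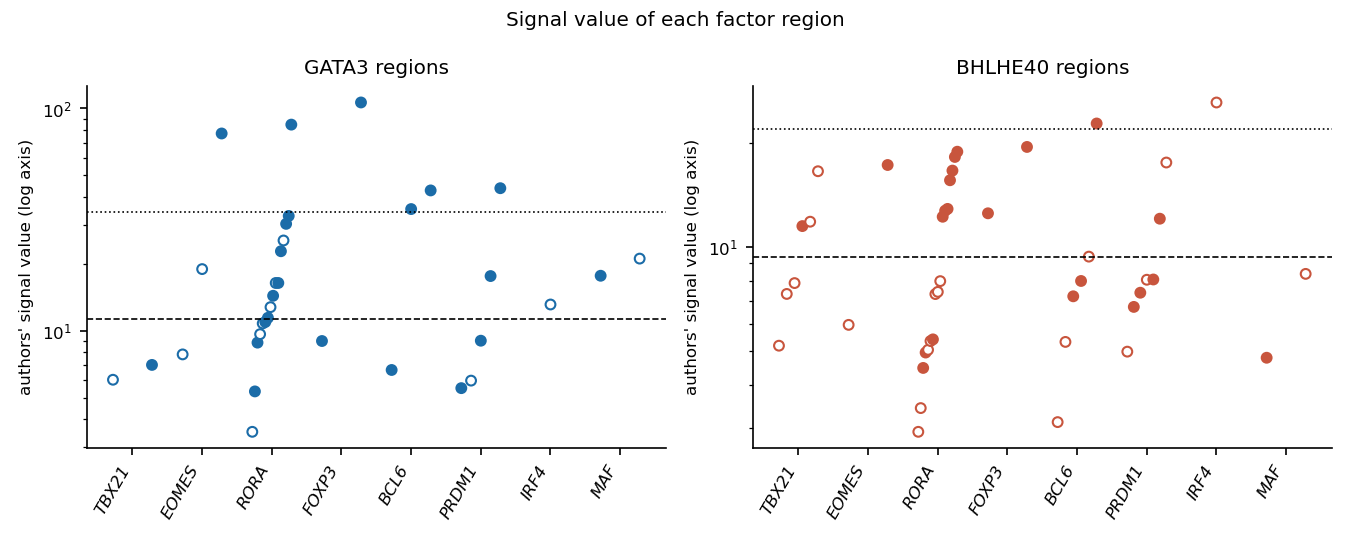
Signal of each GATA3 and BHLHE40 region by gene, on a log axis, with filled points for shared regions a dashed line at the median of the whole list and a dotted line at its 90th percentile (34.1 for GATA3 and 21.9 for BHLHE40). All 6 GATA3 points above the dotted line are shared regions, as are 90.2% of such regions in the whole list, and the BHLHE40 point of highest signal, at IRF4, is not shared.

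GATA3 and BHLHE40 coincided at 22 of the 34 GATA3 regions, or 64.7% (Wilson 95% interval 47.9 to 78.5). The share over the whole GATA3 list was 48.7%, a value that this interval covers. At an irreproducible discovery rate of 0.01 the share around the 8 genes was 14 of 26, 53.8% (35.5 to 71.2). The whole-list share at that rate was not taken. These intervals cover counting error alone, and nearby regions are not independent. Seen from BHLHE40 the share was 22 of 43, 51.2% (36.8 to 65.4), against 53.0%. Summits of shared regions lay a median of 30.5 bp apart, with 18 of 22 within 50 bp, against 35 bp and 61.5% over all shared GATA3 regions. The closest pairs were at PRDM1 (1 bp), EOMES (2 bp), a RORA pair of GATA3 signal 16.4 and BHLHE40 signal 4.96 (8 bp), and FOXP3 (10 bp).

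H3K27ac overlapped 19 of the 34 GATA3 regions, 55.9% (39.5 to 71.1), against 49.1% of the list, and strong H3K27ac overlapped 9, 26.5% (14.6 to 43.1), against 33.4%. BHLHE40 regions overlapped H3K27ac in 26 of 43 cases, 60.5% (45.6 to 73.6), against 76.4%, and strong H3K27ac in 14, 32.6% (20.5 to 47.5), against 60.2%. The whole BHLHE40 list holds many regions at gene starts. The share was therefore also taken over regions with a summit more than 1 kb from every start with a promoter entry. Starts without an entry, such as the 5′ end of the PRDM1 record, were not excluded. For strong H3K27ac the share was then 11 of 38 around the 8 genes, 28.9% (17.0 to 44.8), against 48.7% of 18183. For any H3K27ac it was 22 of 38, 57.9% (42.2 to 72.1), an interval that covers the list value of 69.3%. RORA alone held 17 of the 43 BHLHE40 regions; without it 11 of 26 overlapped strong H3K27ac, 42.3% (25.5 to 61.1), and 16 of 26 any H3K27ac, 61.5% (42.5 to 77.6), and both intervals cover the whole-list values of 60.2% and 76.4%. Without RORA the strong share of GATA3 regions was 38.9%, above the whole-list value rather than below it. GATA3 regions shared with BHLHE40 but free of H3K27ac made up 9 of 34, 26.5%, against 11.0% of the list; they include the strongest places at FOXP3 and PRDM1 and the downstream place at BCL6. GATA3 regions with neither BHLHE40 nor H3K27ac made up 6 of 34, 17.6%, against 39.9%. Of the 25 strong H3K27ac regions, 17 overlapped at least 1 factor (68.0%) and 9 overlapped both (36.0%). Over all 28551 strong H3K27ac regions these shares were 70.0% and 34.5%, close to those around the 8 genes.

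**Figure D4:**
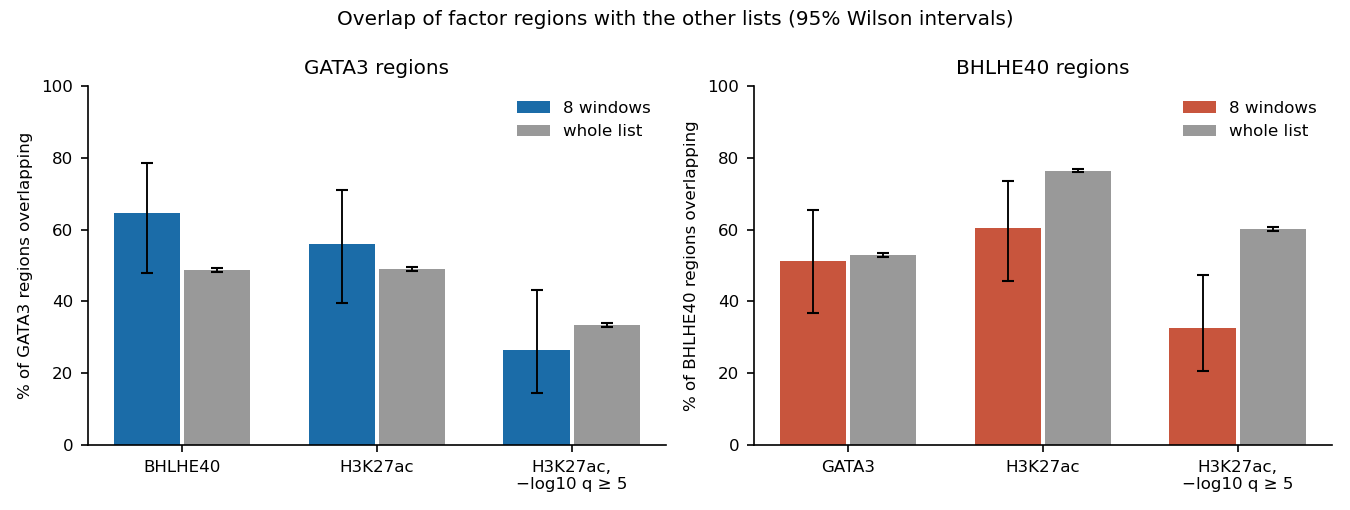
Percent of GATA3 or BHLHE40 regions that overlap another list, around the 8 genes (coloured bars) and over the whole list (grey bars), with 95% Wilson intervals as error bars. The interval around the 8 genes lies below the whole-list value for BHLHE40 with H3K27ac, 60.5% against 76.4%, and with strong H3K27ac, 32.6% against 60.2%; without RORA both intervals cover the whole-list value.

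A list of 35 other helper T-cell genes, grouped by programme, was counted in the same way; it gives context and was chosen with results of these data known. GATA3 regions lay in 33 of the 35 windows (76.1% of all protein-coding windows) and BHLHE40 regions in 33 (80.0%). H3K27ac lay in 35 (92.6%) and shared regions in 30 (60.5%). Of the 29 genes with a promoter entry, 7 had GATA3 over the promoter, against 20.6% of protein-coding genes. For BHLHE40 the count was 11 (47.4%) and for H3K27ac 13 (51.7%). GATA3 lay over the promoters of 5 of 5 Th2 genes (GATA3 itself, the cytokine genes IL4 and IL13, the signal transducer STAT6 and the chemokine receptor CCR4), of 0 of 6 Th1 genes, 0 of 6 Th17 genes, 1 of 6 regulatory genes (IKZF2) and 1 of 6 follicular genes (SH2D1A). Both factors lay over the promoters of GATA3, STAT6, CCR4 and IKZF2, 4 of the 29 genes, against 19.6% of protein-coding genes. HLX was the only gene of the 35 with neither factor in its window. Some windows of this list overlap, as those of IL4 and IL13 and those of STAT3, STAT5A and STAT5B do, so their counts share regions.

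For 7 of the 8 genes, the closest gene of that list is given by distance over 3 numbers. These are the percentiles, among protein-coding windows, of the percent of the window covered by each list. FOXP3 was closest to ICOS, at 6.88 percentile points, RORA to AHR at 9.41, BCL6 to TOX2 at 11.9 and TBX21 to CXCR5 at 12.3. IRF4 was closest to CXCR3 at 13.5, MAF to CCR6 at 14.4 and EOMES to AHR at 21.4, the least close match of the 7.

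As a check of the labelled cell type, H3K27ac overlapped the records of 8 of 8 T-cell markers, 7 of them with strong regions. It overlapped 1 of 4 B-cell markers (PAX5, with no strong region), 1 of 4 myeloid markers (SPI1, strong) and 0 of 4 erythroid markers. Over all protein-coding records the share overlapped by H3K27ac was 70.9%, and the share with a strong region was not taken. Region lists give presence and enrichment, not transcript levels, so whether the 8 genes were transcribed was not measured here. Of the factor regions counted, the one nearest to the window limit was the GATA3 region of signal 8.98 at FOXP3, 49884 bp from the record; the nearest factor regions left out were a BHLHE40 region of signal 3.44 at 74871 bp from TBX21 and a GATA3 region of signal 14.6 at 76205 bp from PRDM1.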

How the data were processed

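Peaks were taken from 3 narrowPeak lists deposited by the authors, each made from the 2 samples of a group. The submitters' processing notes name bcl2fastq 2.20, cutadapt 2.5, Bowtie2 and MACS2 2.1.0 with GRCh38 (hg38). Each list gives the authors' score, signal (the peak caller's enrichment measure, whose reference is not given in the sources used here) and −log10 q per region. Scores in the deposited factor lists ran from 540 to 1000, the range of an irreproducible discovery rate of 0.05, under which a region must recur in both samples; the H3K27ac list is pooled and holds many weak regions. Read depth is not given in the sources used here.

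Windows were RefSeq GRCh38.p14 records with 50 kb on either side; exons and introns were not told apart. A region counted when it overlapped by at least 1 bp. The background was the same count over 20033 protein-coding windows, or over 15841 genes with a promoter entry. Shares have 95% Wilson intervals, and no test across samples was possible with 1 list per group. All 8 genes are named (the closest gene to PRDM1 is not reported here), with up to 3 regions per list by signal and any region over a promoter. The members, gene lists and alternatives were chosen with earlier results of these data known. Analyses used Python 3.11.15, numpy 2.4.6 and pandas 2.3.3. On simulated data with a planted overlap of 29.7% over 26205 regions, the counting returned 29.7%.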

Additional observations from a re-analysis of the deposited data

How the results depend on the processing

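No paired analysis was possible because each group has 1 peak list and no values per sample, and for the same reason no replicate could be left out. Across 13 results, 36 of 47 alternatives (39 planned and 8 chosen after seeing the data) kept the value within its counting interval or within 1.5 times the count. Many alternatives count subsets of the same regions and the intervals are wide, so this tally is a weak check. The GATA3 share with BHLHE40 counts as kept at 53.8% against 64.7%. So does the GATA3 share with strong H3K27ac at 38.9% without RORA against 26.5%. A flank of 10 kb left 22 GATA3, 28 BHLHE40 and 58 H3K27ac regions, and leaving out RORA left 18 GATA3 and 26 BHLHE40 regions. Requiring a −log10 q of at least 5 left 25 H3K27ac regions and lowered the H3K27ac shares to 26.5% for GATA3 and 32.6% for BHLHE40. Requiring the summit to lie in the H3K27ac region gave 35.3% and 41.9%. These changes come from counting fewer regions or asking for a stricter overlap. Widening promoters to 1 kb from the start gave 1 gene with GATA3 in place of 0, PRDM1, against 23.7% of protein-coding genes. Medians of the summit distance stayed between 26.5 and 28 bp under the alternatives that moved it. Unknown depth limits every absence stated: a place without a listed region may hold weaker enrichment.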

Other observations

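The FOXP3 place, with GATA3 of signal 106 and BHLHE40 of signal 19.5 but no H3K27ac, can be set against other strong places. Among the 290 GATA3 regions in the top 1% of the list, 281 were shared with BHLHE40 (96.9%), and 25 were shared and free of H3K27ac (8.62%, 95% Wilson interval 5.91 to 12.4). In the top 10%, 541 of 2900 were shared and free of H3K27ac (18.7%). PRDM1 and the downstream place at BCL6 belong to those 541 as well. The IRF4 place is of the other kind: of 2620 BHLHE40 regions in the top 10%, 348 had no GATA3 region (13.3%). All of these places were picked out after their values were seen.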
